A study of Homo sapiens with 4 samples.

Results

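The MYC, MAX and MXD network is a family of transcription factors that pair with each other through a basic helix-loop-helix leucine zipper. The 10 genes described here were chosen by symbol: MYC, MAX, MXD1, MXI1, MXD3, MXD4, MNT, MGA, MLX and MLXIP. Each symbol matched 1 row of the 78932 Ensembl genes in the table, and all 10 were among the 19511 genes with enough reads to be tested. The cells were RPMI 8226, a human multiple myeloma line. The CELF2 ASO libraries came from cells transfected with an antisense oligonucleotide built on locked nucleic acid (LNA ASO) at 5 nM, directed at the RNA of CELF2, an RNA-binding protein. The control libraries came from cells given a control LNA ASO, for which the labels name no dose. Both groups hold 2 libraries and were taken at 72 h. No label says that these were separate cultures or what the numbers in their names mark, so a p-value covers the spread between libraries and that spread may be technical. Poly(A) selection is named in the design text and ribosomal RNA removal in the sample protocol.

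As background, MYC activates transcription as a dimer with MAX at E-boxes, of which CACGTG is the best-known form. The MXD proteins (MXI1 is also called MXD2) and MNT compete for MAX, bind the same DNA and recruit the SIN3 and histone deacetylase corepressors. MGA is a large MAX partner found in the variant Polycomb complex PRC1.6. MLX forms the parallel arm of the network and pairs with MLXIP (MondoA), which responds to glucose-derived sugar phosphates. MYC deregulation is a common event in multiple myeloma.

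Total counts were between 23599190 and 29161298 per library. Levels are given as CPM, the count scaled to a common library size with edgeR's TMM correction for library composition. CELF2, the ASO target, had 56.6 and 48.8 CPM with the CELF2 ASO and 128 and 127.9 CPM with the control ASO. The biological coefficient of variation was 13.7% within the CELF2 ASO pair and 3.65% within the control pair. Of all tested genes, 55.6% passed an adjusted p of 0.05 in edgeR's quasi-likelihood test, 27.6% higher and 28% lower with the CELF2 ASO. The share of genes whose groups did not overlap in CPM was 79.6%. The count of members called has to be read against these shares. All 8 plasma cell markers examined were detected, with sums of 3831 and 3281 CPM in the CELF2 ASO libraries and 3147 and 3357 CPM in the control libraries. These sums overlapped, but 2 of the 8 were higher and 4 lower. CD38 was 2.43-fold higher (edgeR adjusted p = 0.00183), while SDC1, which encodes CD138, was 2.34-fold lower (0.012) and TNFRSF17, which encodes BCMA, 2.00-fold lower (0.0386). The 12 markers of other cell types summed to 51.5 and 44.5 CPM in the CELF2 ASO libraries and 74.6 and 76.6 CPM in the control libraries, most of it from the epithelial gene EPCAM. Of these 12, 7 were tested, 1 was higher and 3 were lower. The myeloid gene LYZ was at 0 in all 4 libraries, and the T cell gene CD3D had 2 counts in CELF2 ASO replicate 1 and 0 in the other libraries. The part of these markers in the results was not tested. In bulk RNA, fewer cells expressing a gene and less RNA per cell cannot be told apart.

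Of the 10 network genes, 6 were lower with the CELF2 ASO, 1 was higher and 3 did not pass the test. The lower genes were MYC, its partner MAX, the repressors MXD3 and MNT, and both genes of the parallel arm, MLX and MLXIP. MXD1 was the gene that was higher. MXI1, MXD4 and MGA did not pass. The groups did not overlap for the 7 called genes and overlapped for the other 3. Over all tested genes, the groups of 79.6% did not overlap. No member changed 2-fold, and the median log2 fold change of the 10 was -0.43, against 0.04 over all tested genes. Called members made up 70% of the network against 55.6% of all tested genes, so the number called in either direction is near the background. By direction, 6 of the 10 were lower, against 28% of all tested genes, and 1 was higher, against 27.6%. The number lower depended on the scaling. With library totals alone, 3 members were lower and 1 was higher, and of all 19511 tested genes 4539 were lower and 6333 higher. Without control ASO replicate 1, 4 members were called (all lower), as they were without control ASO replicate 2, where 36.4% and 37.8% of all genes tested were called.

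**Figure D1:**
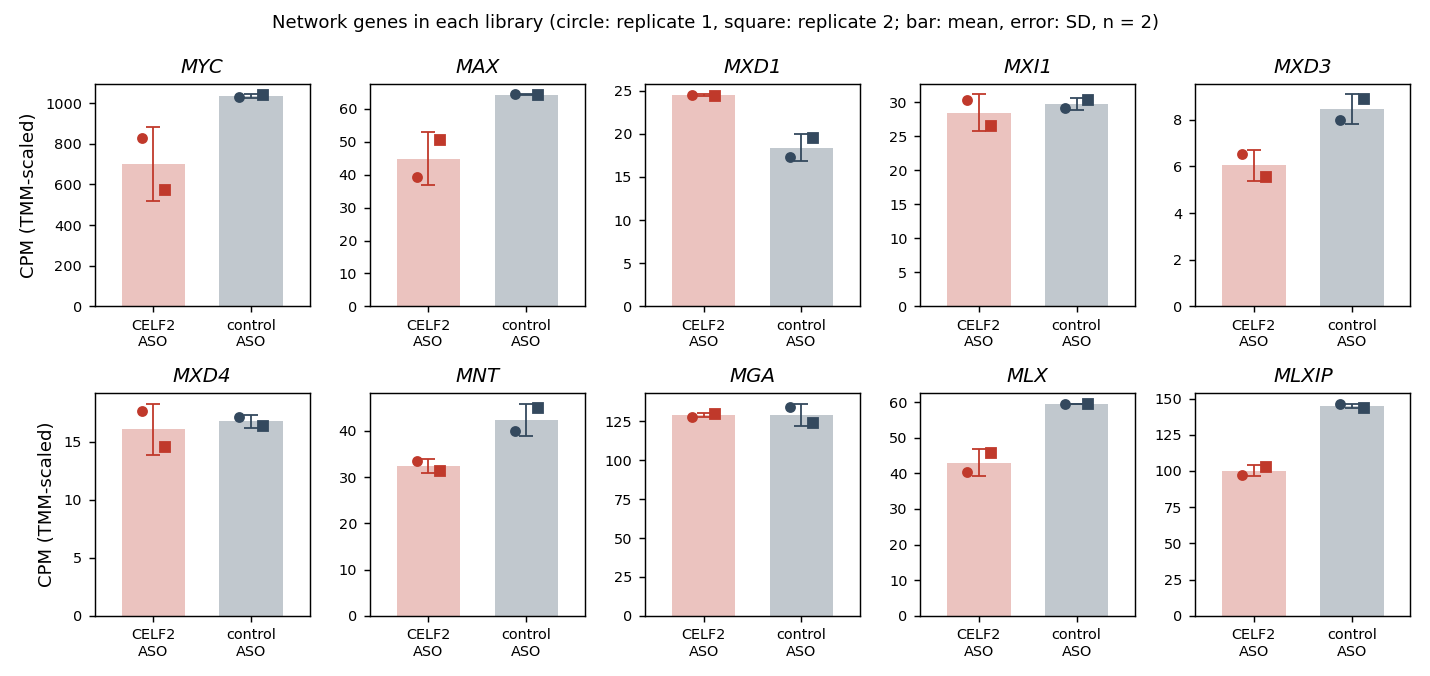
CPM of each network gene by library (y axis from 0), with CELF2 ASO libraries left and control libraries right. Bars are means and error bars are SD (n = 2 each). MYC and MAX fell in both CELF2 ASO libraries but the lower library was a different one for each gene.

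MYC (ENSG00000136997, GRCh38 chromosome 8, 127735434 to 127741434, plus strand) had 23044 and 13645 counts in the CELF2 ASO libraries, against 28788 and 24439 in the control libraries. Scaled, these were 830.9 and 571.1 CPM with the CELF2 ASO and 1029 and 1042 CPM with the control ASO. Both CELF2 ASO libraries lay below both control libraries, and replicate 2 was the lower of the pair. The mean was 701 ± 184 CPM with the CELF2 ASO and 1035 ± 9.21 CPM with the control ASO (SD, n = 2 each). MYC was 1.48-fold lower, a log2 fold change of -0.56 (standard error 0.17, edgeR adjusted p = 0.0334). The size of the fall depended on the library: the log2 fold change was -0.85 without CELF2 ASO replicate 1 and -0.33 without CELF2 ASO replicate 2. The call was lost without control ASO replicate 1 (edgeR adjusted p = 0.0622), with library totals alone (0.1065) and with no low-count filter (0.108).

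MAX, the partner that MYC and the repressors share (ENSG00000125952, chromosome 14, 65006174 to 65102695, minus strand), had 39.3 and 50.5 CPM with the CELF2 ASO and 64.4 and 64.2 CPM in the control libraries. The groups did not overlap, and here CELF2 ASO replicate 1 was the lower of the pair. MAX was 1.43-fold lower (log2 fold change -0.52, standard error 0.12, edgeR adjusted p = 0.00842). It was -0.34 without CELF2 ASO replicate 1 and -0.73 without CELF2 ASO replicate 2, and was called in all 11 alternative settings. Between the CELF2 ASO libraries, replicate 1 over replicate 2, the log2 ratio was 0.54 for MYC and -0.36 for MAX. The same log2 ratio between the control libraries was -0.02 for MYC and 0.00428 for MAX.

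MXD1, also known as MAD1 and a repressor that rises as many cell types differentiate, was the gene of the network that moved up. This gene (ENSG00000059728, chromosome 2, 69897688 to 69942945, plus strand) had 24.6 and 24.4 CPM with the CELF2 ASO, against 17.3 and 19.5 CPM in the control libraries. The CELF2 ASO libraries were close to each other and above both control libraries. The change was 1.33-fold (log2 fold change 0.42, standard error 0.10, edgeR adjusted p = 0.0119). It had the same sign in all 11 alternatives but lost its call without control ASO replicate 1 (log2 fold change 0.30, edgeR adjusted p = 0.2245) or replicate 2 (0.48, edgeR adjusted p = 0.0607).

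MXD3, a repressor linked to proliferating cells (ENSG00000213347, chromosome 5, 177301461 to 177312757, minus strand), was the least abundant member, with 181 and 133 counts in the CELF2 ASO libraries and 224 and 209 in the control libraries. This was 6.53 and 5.57 CPM with the CELF2 ASO and 8.00 and 8.91 CPM with the control ASO, without overlap. MXD3 was 1.39-fold lower (log2 fold change -0.48, standard error 0.15, edgeR adjusted p = 0.0289). The call was lost with library totals alone (edgeR adjusted p = 0.092), in DESeq2 (adjusted p = 0.0641) and without control ASO replicate 1 (edgeR adjusted p = 0.0712) or replicate 2 (0.176). Of its annotated exon bases, 22.5% also lie in PRELID1 on the opposite strand and 18% in RAB24 on the same strand, so the source of some of its reads is uncertain.

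MNT (ENSG00000070444, chromosome 17, 2384060 to 2401118, minus strand) is the repressor expressed in most cell types. It had 33.4 and 31.3 CPM with the CELF2 ASO and 40.0 and 44.9 CPM in the control libraries, again without overlap. MNT was 1.31-fold lower (log2 fold change -0.39, standard error 0.10, edgeR adjusted p = 0.0108). Its call was lost with library totals alone (edgeR adjusted p = 0.0591) and without control ASO replicate 2 (0.147).

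The other 2 repressors did not pass. MXI1 (ENSG00000119950, chromosome 10, 110207605 to 110287365, plus strand) had 30.4 and 26.6 CPM with the CELF2 ASO and 29.2 and 30.4 CPM in the control libraries. The log2 fold change of MXI1 was -0.063, its standard error 0.10 and its adjusted p 0.628 (edgeR). MXD4 (ENSG00000123933, chromosome 4, 2247432 to 2262294, minus strand) had 17.6 and 14.5 CPM with the CELF2 ASO and 17.1 and 16.4 CPM in the control libraries. The log2 fold change of MXD4 was -0.057, its standard error 0.13 and its adjusted p 0.725 (edgeR). For both genes CELF2 ASO replicate 2 lay below both control libraries. CELF2 ASO replicate 1 lay above both for MXD4, but for MXI1 it was level with control ASO replicate 2 (30.395 and 30.385 CPM).

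MGA (ENSG00000174197, chromosome 15, 41621224 to 41773081, plus strand) had 128.1 and 130 CPM with the CELF2 ASO, which lay between the 134.3 and 123.9 CPM of the control libraries. Its log2 fold change was -0.00059 (standard error 0.075, edgeR adjusted p = 0.997). A change larger than the spread between libraries was not detected, and the sign of this value depended on the setting.

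Both genes of the MLX arm were lower, with calls in all 11 alternatives. MLXIP, which encodes MondoA (ENSG00000175727, chromosome 12, 122078722 to 122147347, plus strand), had 97.4 and 103 CPM with the CELF2 ASO and 146 and 143.8 CPM with the control ASO. This was a 1.45-fold fall (log2 fold change -0.53, standard error 0.072, edgeR adjusted p = 0.000678), the smallest adjusted p of the network. MLX (ENSG00000108788, chromosome 17, 42567068 to 42573239, plus strand) had 40.3 and 45.7 CPM with the CELF2 ASO and 59.4 and 59.5 CPM in the control libraries, a 1.38-fold fall (log2 fold change -0.47, standard error 0.090, edgeR adjusted p = 0.00352). For MLX, 18.1% of the exon bases also lie in PSMC3IP on the opposite strand. MLXIPL, which encodes the MondoA paralog ChREBP, had 3 and 6 counts in the CELF2 ASO libraries and 10 and 8 in the control libraries and was not tested.

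**Figure D2:**
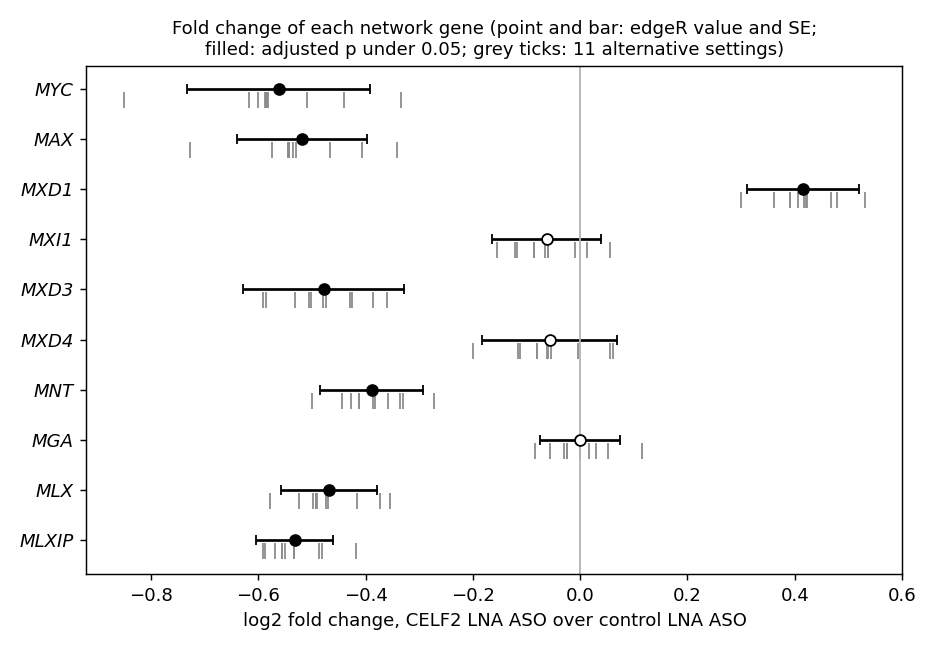
Log2 fold change of each network gene, CELF2 LNA ASO over control LNA ASO (x axis), with its standard error. Filled points passed an adjusted p of 0.05 in edgeR, and grey ticks are the 11 alternative settings. MXD1 stands right of 0 in every setting, and MYC, MAX, MXD3, MNT, MLX and MLXIP stand left of 0.

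Divided by annotated exon length, MYC was far above its partners and competitors in every library. MYC had 276.9 and 190.3 CPM per kb in the CELF2 ASO libraries and 342.7 and 347 CPM per kb in the control libraries. MAX had 8.88 and 11.4 CPM per kb in the CELF2 ASO libraries and 14.5 CPM per kb in each control library. MLX followed MAX closely in the control libraries, with 13.9 and 14.0 CPM per kb, and overlapped it in the CELF2 ASO libraries with 9.46 and 10.7. Below them in mean control level came MLXIP, MGA, MXI1, MNT, MXD1, MXD4 and MXD3. With the CELF2 ASO, MGA (7.26 and 7.37 CPM per kb) and MLXIP (7.01 and 7.41) overlapped, where MLXIP was above MGA in the control libraries. MXD1 (3.87 and 3.84) was above MNT (3.83 and 3.59) with the CELF2 ASO, while MNT (4.58 and 5.14) was above MXD1 (2.72 and 3.07) in the control libraries. MXD3 was lowest in all 4 libraries, at 1.27 and 1.08 CPM per kb with the CELF2 ASO and 1.55 and 1.73 with the control ASO. The exon lengths are of all annotated exons joined, so a gene with many rarely used exons is understated.

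The ratio of MYC to the 5 repressors was lower with the CELF2 ASO. In CPM per kb, MYC over the sum of MXD1, MXI1, MXD3, MXD4 and MNT was 15.3 and 11.6 in the CELF2 ASO libraries and 19.5 and 18.4 in the control libraries. The mean was 13.5 ± 2.61 with the CELF2 ASO and 18.9 ± 0.748 with the control ASO (SD, n = 2 each), a ratio of means of 0.712, given as a description with no test. The repressors' own sum overlapped between the groups, at 18.1 and 16.3 CPM per kb with the CELF2 ASO and 17.6 and 18.9 with the control ASO. MYC over MAX was 31.2 and 16.7 in the CELF2 ASO libraries, on either side of the 23.6 and 23.9 of the control libraries. MLXIP over MLX was 0.74 and 0.69 with the CELF2 ASO and 0.753 and 0.74 with the control ASO. These are ratios of RNA and not of protein.

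**Figure D3:**
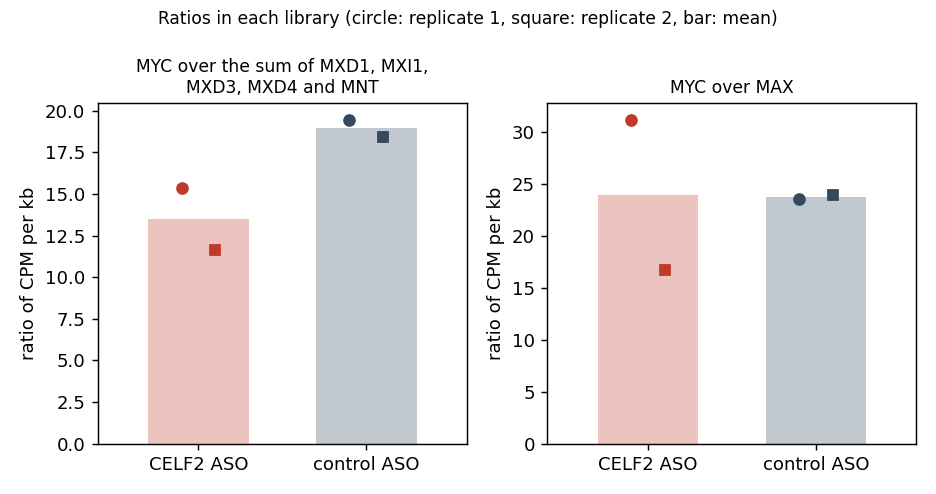
Ratios of CPM per kb in each library, with CELF2 ASO libraries left and control libraries right and bars at the mean (n = 2 each). The ratio of MYC to the repressors is lower in both CELF2 ASO libraries, while MYC over MAX spreads from 16.7 to 31.2 in the CELF2 ASO pair.

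The genes whose levels followed MYC most closely were sought among 7333 tested genes with a symbol and a mean log2 CPM of at least 4. Likeness was the Euclidean distance between log2 CPM values centred on each gene's mean over the 4 libraries. Among the nearest were PALD1 (distance 0.0211), TMEM120B (0.0507), PMEPA1 (0.0596) and CRIM1 (0.0631). PALD1 had 71.2 and 49.6 CPM with the CELF2 ASO and 88.1 and 88.9 CPM in the control libraries, the same order as MYC. With 4 libraries and so many candidates, close matches are a description of these libraries.

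The 3 members whose RefSeq promoters (GRCh38.p14, 250 bases before to 50 after the start) hold the E-box CACGTG are shown because the network's own dimers bind this motif. Promoters of 9 members were in the table, 14 promoters in all, and the member without one was MYC. The motif reads the same on both strands and is in capitals, and each sequence runs 5′ to 3′ on the gene's strand. The 3 members are 33.3% of the 9, against 12.1% of the 11419 tested genes with a promoter in the table.
MLX, chr17:42566850-42567149, plus strand: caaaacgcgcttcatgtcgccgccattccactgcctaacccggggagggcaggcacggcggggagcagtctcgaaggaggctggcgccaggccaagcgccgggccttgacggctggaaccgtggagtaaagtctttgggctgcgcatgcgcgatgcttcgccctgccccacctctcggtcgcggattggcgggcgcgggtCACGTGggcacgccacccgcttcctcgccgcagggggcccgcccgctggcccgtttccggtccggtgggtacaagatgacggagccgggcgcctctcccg
MNT, chr17:2401011-2401310, minus strand: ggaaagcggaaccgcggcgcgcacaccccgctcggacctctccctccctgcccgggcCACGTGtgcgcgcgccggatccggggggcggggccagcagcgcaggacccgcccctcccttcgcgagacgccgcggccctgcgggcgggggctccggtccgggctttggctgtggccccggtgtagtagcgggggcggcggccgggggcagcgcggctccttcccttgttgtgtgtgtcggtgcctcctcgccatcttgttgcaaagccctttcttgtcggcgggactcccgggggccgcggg
MXD4, chr4:2262060-2262359, minus strand: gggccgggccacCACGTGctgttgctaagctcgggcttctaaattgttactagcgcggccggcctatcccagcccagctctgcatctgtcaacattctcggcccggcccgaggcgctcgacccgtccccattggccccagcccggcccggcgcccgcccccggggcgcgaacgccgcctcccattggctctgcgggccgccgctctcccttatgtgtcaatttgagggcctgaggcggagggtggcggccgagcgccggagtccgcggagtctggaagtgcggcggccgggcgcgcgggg
The motif starts 50 bases before the start site in MLX, 193 in MNT and 238 in MXD4. MLX and MNT were lower with the CELF2 ASO, and MXD4 did not pass. The promoters of MAX, MXD1, MXI1, MXD3, MGA and MLXIP in the table do not hold these letters in this window.

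Most of the listed genes that MYC is known to activate fell. This list and those that follow were written from general knowledge with earlier results of these data known, so their counts are no independent evidence of a direction. Of 75 listed targets, all tested, 65 were lower, 3 were higher and 7 did not pass, with a median log2 fold change of -1.11 against 0.04 over all tested genes. The share lower was 86.7%, against 28% of all tested genes. Together they summed to 12017 and 11332 CPM in the CELF2 ASO libraries and 21692 and 21986 CPM in the control libraries. PHB1, which encodes the mitochondrial scaffold protein prohibitin, averaged 63.3 ± 0.189 CPM with the CELF2 ASO and 246 ± 4.58 CPM with the control ASO (SD, n = 2 each), a 3.89-fold fall (edgeR adjusted p = 5.48e-06). NCL, the nucleolar protein nucleolin, was 1.8-fold lower (edgeR adjusted p = 8.33e-05). CAD, the multifunctional enzyme that starts pyrimidine synthesis, averaged 504 ± 61.7 CPM with the CELF2 ASO and 578.7 ± 13 CPM with the control ASO (SD, n = 2 each) and did not pass (edgeR adjusted p = 0.11).

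The 3 targets that rose were XPOT, SHMT2 and SUPV3L1. XPOT, the tRNA exporter, averaged 389 ± 24.9 CPM with the CELF2 ASO and 181 ± 0.968 CPM with the control ASO (SD, n = 2 each). SHMT2, a mitochondrial enzyme of serine and one-carbon metabolism, was 1.67-fold higher (edgeR adjusted p = 0.000117). SUPV3L1, a mitochondrial RNA helicase, was 1.32-fold higher (edgeR adjusted p = 0.0104), a call lost without control ASO replicate 1 (0.162) or replicate 2 (0.0798).

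Of the 63 targets with a promoter in the table, 34 held CACGTG (54%), against the same 12.1% of tested genes. Because the list was written from general knowledge of MYC targets, this share describes the list and is no independent evidence of MYC binding. The median log2 fold change was -1.17 for the 34 targets with the motif, of which 30 were lower, and -1.04 for the 29 without it, of which 24 were lower, a difference that was not tested. Windows of 12 bases on either side of the motif, in capitals, are shown for PLK1 (a mitotic kinase) and MRTO4 (a factor of large ribosomal subunit assembly), the targets with the smallest adjusted p that hold it.
PLK1, promoter chr16:23678639-23678938, plus strand: cccaggctatccCACGTGttcgggcgtccg
MRTO4, promoter chr1:19251555-19251854, plus strand: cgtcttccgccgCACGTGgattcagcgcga
The motif starts 198 bases before the start site of PLK1 and 14 bases after that of MRTO4. PLK1 averaged 74.9 ± 4.78 CPM with the CELF2 ASO and 356 ± 5.98 CPM with the control ASO, and MRTO4 averaged 52.5 ± 2.76 CPM with the CELF2 ASO and 177 ± 4.08 CPM with the control ASO (SD, n = 2 each).

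Of the genes that MYC is known to repress, more were higher than lower. Of 13 listed, 12 were tested, 7 were higher, 1 was lower and 4 did not pass, with a median log2 fold change of 0.62. The share higher was 58.3%, against 27.6% of all tested genes. CDKN1A, which encodes the cell cycle inhibitor p21, averaged 75.9 ± 5.03 CPM with the CELF2 ASO and 25.7 ± 0.103 CPM with the control ASO (SD, n = 2 each). DDIT3, a stress-response transcription factor, was 25.5-fold higher (edgeR adjusted p = 1.03e-05). NDRG1, a differentiation-linked gene, was 1.33-fold lower (edgeR adjusted p = 0.00774). NDRG1 lost this call with library totals alone (0.0562) and without control ASO replicate 1 (0.0525). CDKN1A is also a p53 target and DDIT3 a target of the unfolded protein response, and the part of those responses was not tested. Without control ASO replicate 1, fewer of the listed MYC-repressed genes were called, as were fewer of all tested genes. Their median log2 fold change was then 0.66.

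Of 10 listed targets of MondoA and MLX, 9 were tested, of which 4 were lower in the edgeR test, none was higher and 5 did not pass. The share called was 44.4%, against 55.6% of all tested genes, and the median was -0.37. Without CELF2 ASO replicate 1 the median was -0.24 and some targets were called higher. TXNIP, the best-known MondoA target and an inhibitor of glucose uptake, had 296.8 and 330.1 CPM with the CELF2 ASO and 307.8 and 288 CPM with the control ASO. These groups overlapped (edgeR adjusted p = 0.477). ARRDC4, its arrestin-domain relative, also overlapped (edgeR adjusted p = 0.285). The called genes were metabolic enzymes. FASN, the fatty acid synthase, was 3.68-fold lower, the glycolytic regulator PFKFB3 1.79-fold lower and the hexokinase HK2 1.39-fold lower, and the carboxylase ACACA was the fourth. HK2 is in the list of MYC targets as well. Of the 8 listed targets with a promoter in the table, 4 held CACGTG (50%), against 12.1% of tested genes. Of these 4, windows were drawn only for PFKFB3 and HK2, which were named because they were called. Their E-boxes are shown in capitals with 12 bases on either side, HK2 at 2 places.
PFKFB3, promoter chr10:6202682-6202981, plus strand: caccctcctcccCACGTGgaagggggctgg
HK2 first site, promoter chr2:74834920-74835219, plus strand: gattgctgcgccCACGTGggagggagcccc
HK2 second site, same promoter: ttccggcgagagCACGTGgagagaatcgtg
These sites start 108 bases before the start site in PFKFB3, and 194 and 149 bases before it in HK2.

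**Figure D4:**
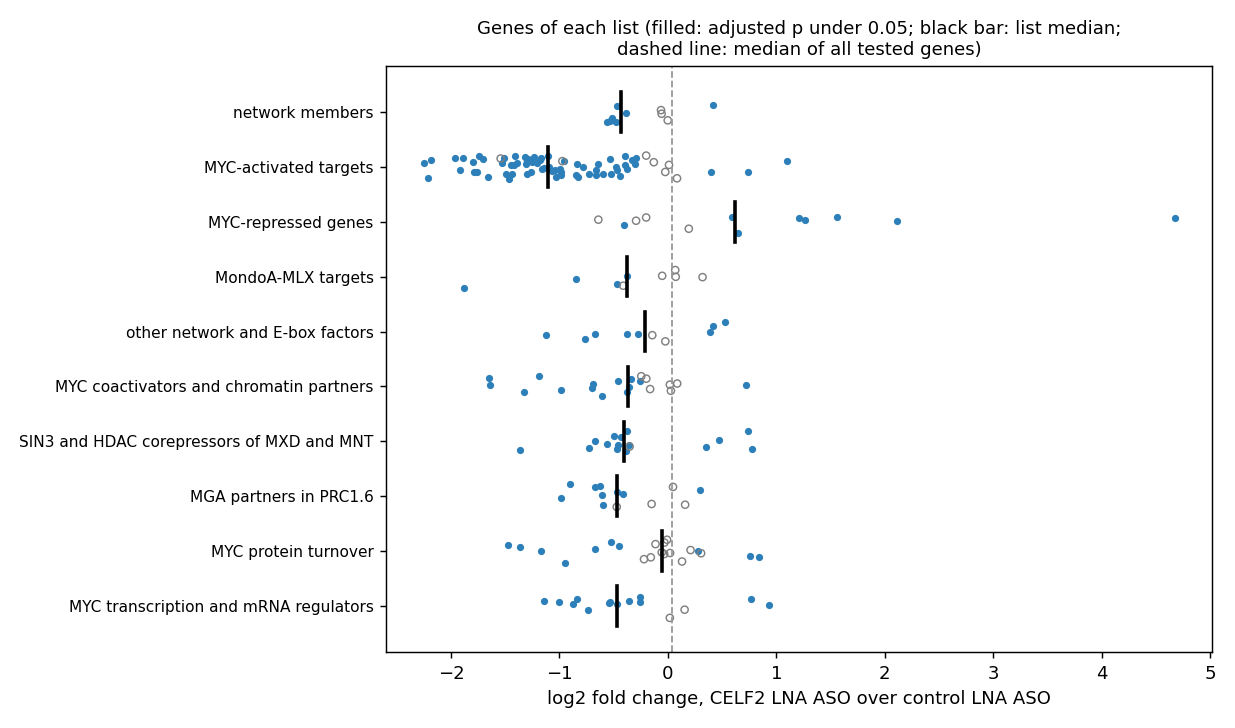
Log2 fold changes of the genes in each list, CELF2 LNA ASO over control LNA ASO (x axis), with list medians as black bars and the median of all tested genes dashed. Filled points passed an adjusted p of 0.05 in edgeR. MYC-activated targets centre on -1.11 and MYC-repressed genes on 0.62.

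Paralogs and other E-box binding factors moved in both directions. Of 11 listed and 10 tested, 3 were higher and 5 lower (80% called, against 55.6% of all tested genes). Without control ASO replicate 1, or without replicate 2, fewer of them and fewer of all tested genes were called. Their median log2 fold change was then -0.22 and -0.25. MYCN had 208 and 126 counts in the CELF2 ASO libraries and 302 and 257 in the control libraries and was 1.69-fold lower (edgeR adjusted p = 0.00881). MYCL was 1.33-fold higher (edgeR adjusted p = 0.0342), a call lost with no filter (0.0868), in DESeq2 (adjusted p = 0.147) and without control ASO replicate 1 (0.16) or replicate 2 (0.293). TFAP4, a helix-loop-helix factor that MYC is known to activate, was 2.17-fold lower (edgeR adjusted p = 0.000209). Of the lysosomal regulators, TFE3 was 1.44-fold higher and TFEB 1.59-fold lower.

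Most cofactors of the network were lower with all 4 libraries. Of 20 MYC coactivators and chromatin partners, 13 were lower (65%, against 28% of all tested genes) and 1 was higher, with a median of -0.37. Fewer of these 20, and fewer of all tested genes, were called without control ASO replicate 1 or without replicate 2. The median of the 20 was then -0.38 and -0.42. KAT2A, the acetyltransferase GCN5, fell 3.12-fold and the helicase RUVBL2 3.13-fold. TRRAP, the scaffold that MYC binds to recruit acetyltransferases, had 716.8 and 674.5 CPM with the CELF2 ASO and 428.9 and 416.4 CPM with the control ASO, a 1.65-fold rise (edgeR adjusted p = 0.000161). Among 16 SIN3 and histone deacetylase corepressors of the MXD proteins and MNT, 11 were lower (68.8%) and 4 higher (25%), against 28% lower and 27.6% higher of all tested genes, with a median of -0.41. Without control ASO replicate 1, fewer of the corepressors and fewer of all tested genes were called, and the corepressor median was -0.43. HDAC1 was 1.39-fold lower and HDAC2 1.59-fold lower, while the SIN3 subunit SUDS3 was 1.71-fold higher. Of 13 MGA partners in PRC1.6, 8 were lower (61.5%, against 28% of all tested genes) and 1 higher, with a median of -0.47. Of these 8, 4 are in other lists here too, namely CBX3, WDR5, HDAC1 and HDAC2. L3MBTL2, a defining subunit of that complex, was 1.87-fold lower (edgeR adjusted p = 5.84e-05).

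Regulators of MYC itself were also read. Of 21 genes of MYC protein turnover, 3 were higher, 7 were lower and 11 did not pass, with a median of -0.06 and 47.6% called, against 55.6% of all tested genes. FBXW7, the ubiquitin ligase subunit that recognises phosphorylated MYC, averaged 25.1 ± 2.15 CPM with the CELF2 ASO and 21.7 ± 1.89 CPM with the control ASO (SD, n = 2 each, edgeR adjusted p = 0.15). USP28, a deubiquitinase that opposes FBXW7, was 1.79-fold higher (edgeR adjusted p = 0.00124), and AURKA, a kinase that stabilises MYCN, was 2.78-fold lower. Of 15 tested regulators of MYC transcription or mRNA, 2 were higher and 11 lower (73.3%, against 28% of all tested genes). Without control ASO replicate 1, fewer of these regulators and fewer of all tested genes were called, and the regulators' median log2 fold change was -0.52. IRF4, a plasma cell factor that activates MYC in myeloma cells, had 1431 and 1341 CPM with the CELF2 ASO and 811 and 814.1 CPM in the control libraries, a 1.71-fold rise (edgeR adjusted p = 0.000118). The long noncoding RNA PVT1, next to MYC on chromosome 8, had 98.1 and 87.1 CPM with the CELF2 ASO and 83.4 and 83.0 CPM in the control libraries and did not pass (edgeR adjusted p = 0.152). Of mRNA-binding proteins, HNRNPD was 2.01-fold lower and YTHDF2 1.79-fold lower. IGF2BP1, with only 31 to 75 counts per library, was 1.91-fold higher (edgeR adjusted p = 0.0483). Only 1 of these regulators was called higher with RLE scaling, with no low-count filter or in DESeq2. The paralogs IGF2BP2 and IGF2BP3 were 1.84-fold and 1.20-fold lower (edgeR adjusted p = 0.000138 and 0.0273).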

How the data were processed

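RNA sequencing of RPMI 8226 cells gave read counts per gene for 2 CELF2 LNA ASO and 2 control LNA ASO libraries. The deposited values were raw whole-number counts. Per the submitters' processing notes, the tools included featureCounts 2.0.8 with Subread, STAR 2.7.11b, bcl2fastq and Salmon 1.10.0, on GRCh38. Annotation release, strand setting and treatment of multi-mapping reads were not given in the sources used here. The table held 79029 rows, of which 97 named no Ensembl gene, held 1 to 3 counts per library and were left out. A name table gave symbols for 61481 IDs. Positions and exon lengths came from GENCODE 29 on GRCh38.

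Genes were kept by filterByExpr (minimum count 10, minimum total 15), scaled by TMM and compared in R 4.3.3 with edgeR 4.0.16 (quasi-likelihood test, two-sided, robust, no covariate, non-legacy fit), with Benjamini-Hochberg adjustment over all 19511 genes at 0.05. Standard errors are the absolute log2 fold change over the square root of F. The method was also run on simulated data with equal spread in both groups and few changed genes. These libraries had unequal spread and many called genes, so that run does not show how the method performs here. Libraries of a pair differed beyond sampling noise (chi-square per degree of freedom 22.5 for the CELF2 ASO pair and 3.73 for the control pair). Alternatives used RLE scaling, library totals, other filters, DESeq2 1.42.0, limma 3.58.1, the replicate number as a block and each library left out. The members and lists were chosen with earlier results of these data known. Named genes were the members, CELF2, up to 3 list members per direction by adjusted p with groups that did not overlap, any list member with its values, and the 5 tested genes with a symbol nearest to MYC in centred log2 CPM (prior count 2). Of these 5, 1 is not reported here.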

Additional observations from a re-analysis of the deposited data

How the results depend on the processing

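MAX, MLX and MLXIP kept their direction and their call in all 11 alternatives. Members called numbered 4 with library totals alone, where 55.7% of all genes were called, and ranged over 4 to 7 when 1 library was left out, against 7 of 10 in the main analysis. When a control library was left out, the spread came from the CELF2 ASO libraries only, and the control libraries alone gave it when a CELF2 ASO library was left out. Library totals alone moved the median of all genes by 0.12 on the log2 scale and gave 6333 genes higher and 4539 lower, against 5388 and 5460 in the main analysis. With 1 library left out, called MYC-repressed genes ranged over 5 to 9 (8 in the main analysis), other network and E-box factors over 4 to 9 (8), corepressors over 8 to 16 (15) and MYC transcription and mRNA regulators over 8 to 13 (13). The 3 members that did not pass changed sign. With library totals alone the log2 fold change was 0.0556 for MXI1, 0.062 for MXD4 and 0.115 for MGA, and for MGA it was 0.0511 with the 1 CPM filter. With 1 library left out, it ranged over -0.156 to 0.0134 for MXI1, -0.20 to 0.0551 for MXD4 and -0.0835 to 0.0296 for MGA. The ratio of means of MYC to the repressors was 0.724 with no division by length and 0.666 without MNT. With the replicate number as a block, 10790 genes and 7 members were called, and MGA had a log2 fold change of 0.00051. Same-numbered libraries deviated from their group means with a correlation of 0.034, and with only 2 pairs the numbers were not taken as pairing. Of 660 values for 60 named genes under the alternatives, 602 kept direction and side of the threshold, 49 lost the call and 9 changed sign. The cause of these shifts was not tested. Counts of 133 to 224 for MXD3 limit its precision.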
